A study of Mus musculus with 6 samples.

Results

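The 10 genes described here encode checkpoint receptors of T cells outside the PD-1 and CTLA-4 family, with the ligands and relatives closest to them. They are Tigit, Cd96, Cd226, Lag3, Havcr2, Havcr1, Cd160, Vsir, Lgals9 and Ceacam1, chosen by symbol among the 16281 genes of the count table, and all 10 had a row there. RNA was sequenced from CD8+ T cells of OT1 mice, which are C57BL/6 mice with the transgene Tg(TcraTcrb)1100Mjb for a T-cell receptor that recognises an ovalbumin peptide. The cells were taken from the spleen, activated for 48 h with anti-CD3 and anti-CD28 at 2 μg/ml each and IL-2 at 20 ng/mL, and then kept in IL-2 alone for 3 days. The sample labels give the spleen as the source, and the series description adds lymph nodes. All cultures carried the transgene and received the same stimulation, which was by antibody and not by the ovalbumin peptide. In the GSK group (n = 3), GSK2879552, an irreversible inhibitor of the histone demethylase LSD1, was present at 0.5 μM during activation and expansion, and the Veh group (n = 3) received vehicle. Cells came from 3 separate mice by the study's account, which does not say whether samples with the same number shared a mouse, and the age of the mice was not given in the sources used here.

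These receptors work as opposing sets on one cell. CD226 is activating, while TIGIT and CD96 are inhibitory, and all of them bind CD155 and related nectin family proteins on other cells, so they compete for shared ligands. LAG-3 binds MHC class II and further ligands, TIM-3 (encoded by Havcr2) is engaged by galectin-9 (Lgals9) and CEACAM1, VISTA (Vsir) restrains resting and activated T cells, and CD160 binds the TNF receptor family member HVEM. Some of these receptors, among them LAG-3, TIM-3 and TIGIT, are induced by T-cell activation and stay high on exhausted CD8+ T cells. This is not so for every member.

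The samples held between 18288447 and 19846720 counted reads each, and normalised values are CPM, the counts of a gene scaled to a common library total after TMM correction. Of the 16281 genes, 11698 had enough counts to be tested with edgeR's quasi-likelihood test, with p-values adjusted over all of them. Of the markers of the labelled cell type, Cd8a averaged 516 ± 19.0 CPM (SD, n = 3) and 541 ± 13.1 CPM in Veh and GSK, against 1.19 ± 0.533 and 0.967 ± 0.663 CPM for Cd4. Kdm1a, the gene of LSD1, did not pass the test (92.7 ± 5.45 and 87.0 ± 3.54 CPM, edgeR adjusted p = 0.22), and the inhibitor acts on the protein. In such bulk RNA, fewer cells that express a gene and less RNA per cell cannot be told apart.

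Promoter sequences are shown for Tigit, Cd96, Havcr2 and Vsir because their groups did not overlap, with GSK below Veh for Cd96 and Vsir and above it for Tigit and Havcr2. Each line gives the 250 bases before the annotated RefSeq start (GRCm38.p6), 5′ to 3′ on the gene's own strand, as entries of a table that held 8 of the 10 members. The Tigit start used lies inside the RefSeq region of the gene, which extends to base 43665125. Capitals mark a RUNX motif (TGTGGT, or ACCACA on the other strand), an AP-1 motif (TGANTCA, the same on both strands) or an ETS motif (AGGAAG, or CTTCCT). T-box (GGTGTGA) and GFI1 (AAATCA) motifs were also searched on both strands, and none of the marked motifs overlap each other.
Tigit, chr16:43664185-43664434, minus strand: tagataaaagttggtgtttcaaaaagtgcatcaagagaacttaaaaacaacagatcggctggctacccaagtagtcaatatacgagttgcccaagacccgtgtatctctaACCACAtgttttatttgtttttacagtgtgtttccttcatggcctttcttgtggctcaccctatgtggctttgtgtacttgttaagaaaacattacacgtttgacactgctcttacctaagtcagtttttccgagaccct
Cd96, chr16:46120249-46120498, minus strand: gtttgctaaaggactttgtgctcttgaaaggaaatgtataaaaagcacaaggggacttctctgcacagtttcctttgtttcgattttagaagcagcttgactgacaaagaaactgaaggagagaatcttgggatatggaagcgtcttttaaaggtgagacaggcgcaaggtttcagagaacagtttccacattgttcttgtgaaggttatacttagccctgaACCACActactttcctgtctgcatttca
Havcr2, chr11:46454681-46454930, plus strand: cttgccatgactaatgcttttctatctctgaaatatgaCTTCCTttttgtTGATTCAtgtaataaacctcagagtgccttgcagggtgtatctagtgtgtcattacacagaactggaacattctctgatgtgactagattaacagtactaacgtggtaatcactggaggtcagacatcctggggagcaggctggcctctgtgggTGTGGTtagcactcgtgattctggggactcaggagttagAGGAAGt
Vsir, chr10:60346601-60346850, plus strand: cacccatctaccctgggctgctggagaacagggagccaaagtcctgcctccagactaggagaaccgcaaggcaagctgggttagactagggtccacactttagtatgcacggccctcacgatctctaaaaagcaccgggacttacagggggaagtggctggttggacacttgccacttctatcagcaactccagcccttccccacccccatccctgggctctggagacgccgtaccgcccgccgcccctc
A RUNX motif stood in the windows of Tigit, Cd96 and Havcr2, as it did in 14.0% of 32817 windows of all genes. Of the members not shown, Cd160, whose groups overlapped, held it at each annotated start, and Havcr1, Lgals9 and Ceacam1 did not hold it. Havcr2 also held an AP-1 motif, present in 6.75% of all windows, and an ETS motif on each strand, present in 29.5%. The Vsir window held none of the motifs searched and had the most C and G of the 4 windows, 60.4% against 40.0% for Tigit, 41.2% for Cd96 and 44.8% for Havcr2. None of these 4 windows held a T-box motif (3.33% of all windows) or a GFI1 motif (12.4%). Such matches describe the letters of a window and not binding. Lag3 and Cd226 had no entry.

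Under GSK, RNA of the activating receptor Cd226 and of the inhibitory receptors Cd96 and Vsir fell, a call kept in all 12 alternative fits. That of Tigit rose, a call kept in 6 of the 12. Havcr2 had a larger rise (log2 fold change 0.58) that did not pass in the main fit (edgeR adjusted p = 0.091). Of the 10 members, 9 were tested. At an edgeR adjusted p under 0.05, 3 were lower, a call that 15.5% of all tested genes received, and 1 was higher, as were 16.6% of all tested genes. In both directions together, 4 of 9 members passed, against 32.1% of all tested genes. No member passed both that threshold and a fold change of 1.5, which 6.32% of tested genes did (2.22% higher and 4.09% lower). DESeq2 called 1 member higher, Havcr2 in place of Tigit, against 14.5% of the genes it tested, and 4 lower, with Lag3 added, against 13.2%. The 9 members had a median log2 fold change of -0.082, against -0.0039 over all tested genes. The groups did not overlap for 5 of 9 members, against 46.7% of all tested genes. GSK lay above in 2 of them, against 23.7% of tested genes, and below in 3, against 23% of tested genes. The CPM of the 10 members summed to between 735 and 741 in the Veh samples and between 609 and 656 in the GSK samples. This sum is not corrected for length and comes mostly from Vsir, Cd96 and Lgals9, so it does not describe the members alike.

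**Figure D1:**
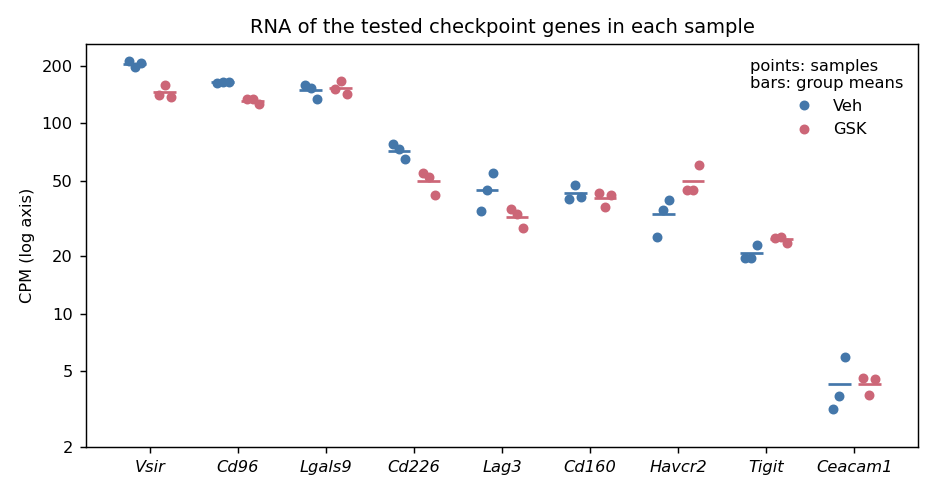
CPM of the 9 tested checkpoint genes on a log axis, with each point a sample and each bar the mean of 3 Veh (blue) or 3 GSK (red) samples. The Cd226, Cd96 and Vsir points of GSK all sit below those of Veh, those of Tigit and Havcr2 all sit above, and the points of the other 4 genes overlap.

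Cd226 encodes the activating member of the nectin-binding receptors, also called DNAM-1. Its RNA stood at 78.0, 73.1 and 64.8 CPM in Veh replicates 1 to 3 and at 54.9, 52.1 and 42.1 CPM in the GSK replicates. Every GSK sample lay below every Veh sample, with means of 71.9 ± 6.67 CPM (SD, n = 3) and 49.7 ± 6.74 CPM. This was a log2 fold change of -0.53 (standard error 0.10, 95% interval -0.76 to -0.30, edgeR adjusted p = 0.0041). In all 6 fits that left out 1 sample it stayed past the threshold, with log2 fold changes from -0.61 to -0.43. Without Veh replicate 3 (-0.60) or GSK replicate 1 (-0.61), Cd226 also passed a fold change of 1.5.

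Tigit (Entrez gene 100043314) encodes an inhibitory receptor with an immunoglobulin domain and lies on the minus strand of chromosome 16. Its RNA was at 19.7, 19.6 and 22.9 CPM in Veh and at 25.1, 25.4 and 23.6 CPM in GSK. The lowest GSK sample exceeded the highest Veh sample by less than the spread within Veh, and the means were 20.8 ± 1.86 CPM (SD, n = 3) and 24.7 ± 0.966 CPM. The log2 fold change was 0.25 (standard error 0.083, 95% interval 0.071 to 0.43, edgeR adjusted p = 0.035). This call was lost when Veh replicate 1, Veh replicate 2, GSK replicate 1 or GSK replicate 2 was left out (edgeR adjusted p from 0.073 to 0.12), and DESeq2 gave an adjusted p of 0.078. In the RefSeq gene table of GRCm38.p6, Tigit spans bases 43626137 to 43665125 and shares 8256 bases with Zbtb20, a gene of a zinc finger repressor, and 83 bases with the microRNA gene Mir568. In GENCODE M21, also on GRCm38, Tigit spans 43648867 to 43664146 and overlaps no other gene. Zbtb20 moved the other way, from 17.01 ± 3.18 CPM (SD, n = 3) to 8.97 ± 1.93 CPM (log2 fold change -0.92, edgeR adjusted p = 0.0024). The part of reads from the shared bases in the Tigit counts was not tested.

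Cd96 encodes the other inhibitory receptor of this set and lies on the minus strand of the same chromosome, from 46035657 to 46120251 (GRCm38, GENCODE M21). In the RefSeq table it shares 675 bases with the pseudogene Gm50487. The Veh samples were nearly equal, at 163, 165 and 165 CPM, and the GSK samples were at 134, 134 and 126 CPM. The groups did not overlap, and the means were 164 ± 1.27 CPM (SD, n = 3) and 131 ± 4.40 CPM. The log2 fold change was -0.32 (standard error 0.044, 95% interval -0.42 to -0.23, edgeR adjusted p = 1.9e-04), which is 1.25-fold lower. Leaving out 1 sample moved it only between -0.34 and -0.30, with an adjusted p of at most 0.0021 in edgeR. The spread between Veh samples, 0.775% of the mean, was the smallest among the tested members, whereas tested genes with a mean of at least 5 CPM had a median spread of 4.71%.

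Because CD226, TIGIT and CD96 share ligands, their counts were also set against each other within each sample, a ratio that does not depend on scaling between samples. There were 3.95, 3.72 and 2.83 Cd226 reads for each Tigit read in the Veh samples and 2.18, 2.05 and 1.78 in the GSK samples. Such reads are not corrected for gene length, so a ratio over 1 does not mean more Cd226 than Tigit transcripts. The groups did not overlap, and the mean went from 3.501 ± 0.594 (SD, n = 3) to 2.00 ± 0.205, a difference of -0.79 in the log2 ratio. Every GSK sample already lay below Veh for Cd226 and above Veh for Tigit. The separation of this ratio and its permutation p-value followed from that and add no support. The exact permutation test (two-sided) gave p = 0.1, the smallest that 3 against 3 samples allow, and 0.2 after Benjamini-Hochberg adjustment over the 3 ratios compared. The ratio of Cd226 to Cd96 was 0.438 ± 0.0431 (SD, n = 3) in Veh and 0.377 ± 0.0400 in GSK, and the groups overlapped (difference of -0.22 in the log2 ratio, exact permutation p = 0.2, adjusted p = 0.2). The ratio of Cd160 to Lag3, both receptors of activated CD8+ T cells, was 0.985 ± 0.213 (SD, n = 3) in Veh and 1.26 ± 0.203 in GSK, and the groups overlapped as well (exact permutation p = 0.2, adjusted p = 0.2).

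**Figure D2:**
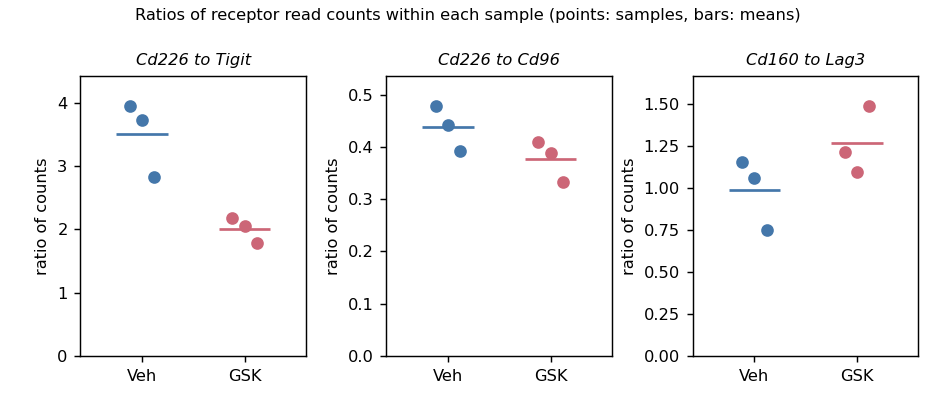
Ratio of read counts of one receptor to another within each sample (vertical axes from 0, without unit), with points for the 3 Veh (blue) and 3 GSK (red) samples and bars for their means. For Cd226 to Tigit, the GSK samples lie between 1.78 and 2.18 and the Veh samples between 2.83 and 3.95, while the groups overlap in the other 2 panels.

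Vsir encodes VISTA, an inhibitory protein of the B7 family that is carried by myeloid cells as well as T cells. Its RNA was at 212, 198 and 208 CPM in Veh and 140, 160 and 138 CPM in GSK, so all GSK samples lay below all Veh samples. The means were 206 ± 7.29 CPM (SD, n = 3) and 146 ± 11.8 CPM, with a log2 fold change of -0.49 (standard error 0.056, 95% interval -0.62 to -0.37, edgeR adjusted p = 5.6e-05). In all 6 fits that left out 1 sample Vsir stayed past the threshold, with log2 fold changes from -0.56 to -0.46. Vsir lies on the plus strand of chromosome 10 from 60346851 to 60372684 (GRCm38, GENCODE M21), inside the region of Cdh23, which runs on the opposite strand and shares no exonic bases with it. The few reads of Cdh23, 1.82 ± 0.129 CPM (SD, n = 3) in Veh and 1.65 ± 0.310 CPM in GSK, were far below those of Vsir. In the RefSeq table Vsir also overlaps Gm17455, whose Veh and GSK means were 0.588 and 0.223 CPM.

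Lag3 encodes a relative of CD4 that inhibits T cells and lies on the minus strand of chromosome 6 from 124904361 to 124911705 (GRCm38, GENCODE M21). The Veh samples differed widely, at 34.8, 44.8 and 55.1 CPM, and the GSK samples were at 35.6, 33.3 and 28.3 CPM. The lowest Veh sample fell inside the range of the GSK samples, so the groups overlapped. The log2 fold change was -0.47 (standard error 0.18, unadjusted 95% interval -0.92 to -0.024), and the edgeR adjusted p of 0.10 did not pass. The spread between Veh samples was 22.7% of the mean. Without Veh replicate 1, the sample inside the GSK range, the log2 fold change was -0.63 (edgeR adjusted p = 0.0036), and without Veh replicate 3 it was -0.30 (edgeR adjusted p = 0.11). DESeq2 gave an adjusted p of 0.0025 with all samples, and edgeR without robust shrinkage gave 0.026.

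Havcr2 encodes the inhibitory receptor TIM-3 and lies on the plus strand of chromosome 11 from 46454935 to 46481255 (GRCm38, GENCODE M21). Its RNA was at 25.3, 35.3 and 39.5 CPM in Veh and at 44.8, 44.5 and 60.2 CPM in GSK. Every GSK sample lay above every Veh sample, but the spread was 21.8% of the mean in Veh and 18% in GSK. With means of 33.4 ± 7.29 CPM (SD, n = 3) and 49.9 ± 8.99 CPM, Havcr2 had the largest positive log2 fold change of the members, 0.58 (standard error 0.21, unadjusted 95% interval 0.054 to 1.10), and its edgeR adjusted p of 0.091 did not pass. DESeq2 gave an adjusted p of 0.048 and edgeR without robust shrinkage 0.015. With samples blocked by replicate number, whose pairing is not known, edgeR gave an adjusted p of 0.0017. None of the 6 fits that left out 1 sample passed (edgeR adjusted p from 0.061 to 0.18).

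The ligands tied to TIM-3 did not pass the test. Lgals9, which encodes galectin-9, was at 160, 154 and 134 CPM in Veh and 151, 167 and 143 CPM in GSK. The groups overlapped, and the log2 fold change was 0.044 (95% interval -0.12 to 0.21, edgeR adjusted p = 0.68). Ceacam1, an adhesion molecule that can bind TIM-3 on the same cell, had few reads, with 58, 69 and 113 counts in Veh and 88, 74 and 87 counts in GSK. Its log2 fold change of 0.0090 had a wide 95% interval from -0.49 to 0.50 (edgeR adjusted p = 0.98), and a difference within that interval could not be told from 0 with these samples, whose spread in Veh was 34.6% of the mean. The RefSeq table lists 4732471J01Rik, a long noncoding RNA gene, across the Ceacam1 region on the opposite strand, with 0 exonic bases shared in GENCODE M21. Havcr1, which encodes TIM-1, had 0 counts in the 3 Veh samples and in GSK replicate 3, and 1 count each in GSK replicates 1 and 2. In Veh replicate 3, 0 counts allow up to 3 counts, or 0.159 CPM, and Havcr1 had too few counts to be tested.

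Cd160, whose product binds HVEM, was at 40.1, 47.3 and 41.1 CPM in Veh and 43.1, 36.3 and 42.1 CPM in GSK. The groups overlapped, with a log2 fold change of -0.082 (95% interval -0.26 to 0.096, edgeR adjusted p = 0.48). Of its exonic bases, 68 (2.57%) overlap exons of Pdzk1 on the opposite strand, whose Veh and GSK means were 1.77 and 2.02 CPM.

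**Figure D3:**
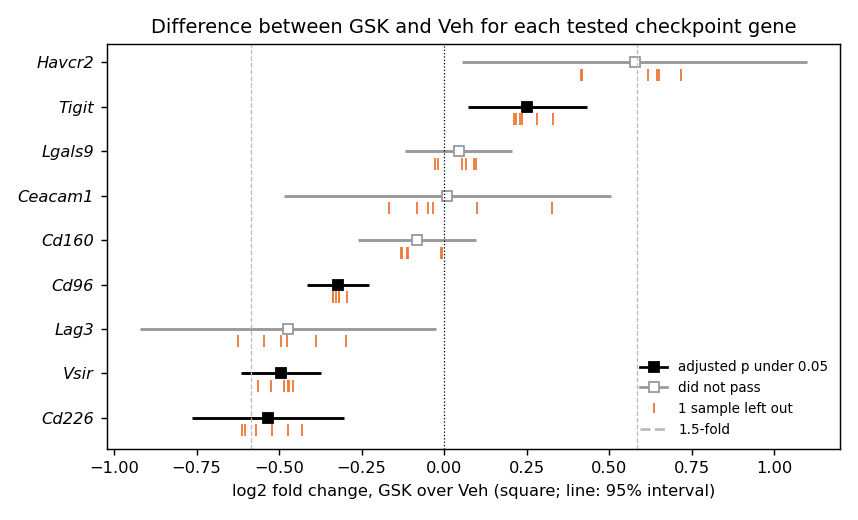
Log2 fold change of GSK over Veh for the 9 tested checkpoint genes (squares) with unadjusted 95% intervals (lines), filled black where the edgeR adjusted p was under 0.05. Orange ticks give the value with each of the 6 samples left out, and dashed lines mark a fold change of 1.5, which no black square crosses. The intervals of Lag3 and Havcr2 exclude 0 narrowly, and those of Ceacam1, Lgals9 and Cd160 include it.

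Levels of different members were compared only as CPM per kilobase of exon, with exons from GENCODE M21. In Veh, Cd96 was highest, at 75.2 ± 0.582 CPM per kilobase (SD, n = 3), and its samples overlapped those of Lgals9 at 69.8 ± 6.43 CPM per kilobase. Vsir followed at 41.1 ± 1.45 CPM per kilobase, apart from both neighbours in the order. Tigit (22.6), Lag3 (21.3), Cd160 (16.2), Cd226 (14.7) and Havcr2 (12.3 CPM per kilobase) came next, and each overlapped its neighbours within this run. Ceacam1 was far lower, at 0.734 ± 0.254 CPM per kilobase. In GSK, Lgals9 (67.0 to 77.9 CPM per kilobase) lay above Cd96 (57.9 to 61.5), and Cd226 at 10.2 ± 1.38 CPM per kilobase was the lowest of the receptors other than Ceacam1 and Havcr1. The place of Tigit is uncertain because GENCODE M21 lists 919 exonic bases for it and the RefSeq region is longer.

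**Figure D4:**
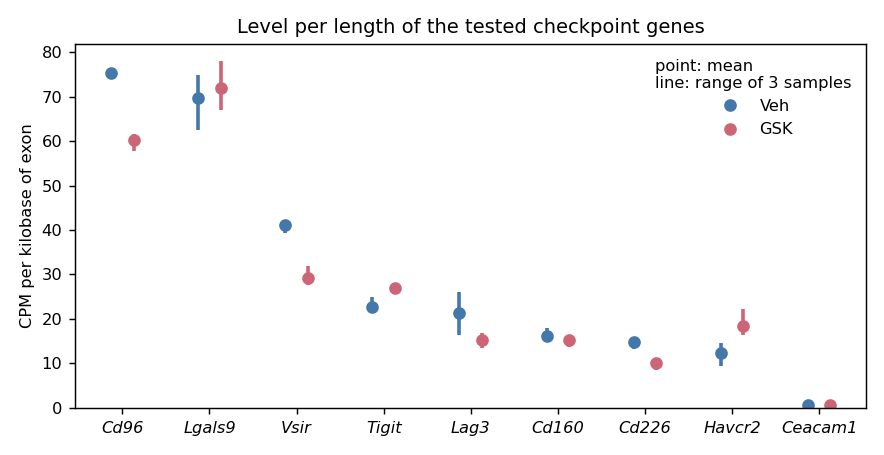
Level of the 9 tested checkpoint genes as CPM per kilobase of exon (vertical axis from 0), with the mean (point) and the range (line) of the 3 Veh (blue) and 3 GSK (red) samples. Cd96 and Lgals9 stand highest in both groups, and Ceacam1 is near 0.

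A list of 31 ligands, relatives and signalling partners of these receptors was examined in the same fit. Of these, 29 had a row and 24 were tested, and 6 were higher and 0 lower at an edgeR adjusted p under 0.05, against 16.6% and 15.5% of all tested genes. Among the partners with an unadjusted p under 0.05 that did not pass, 3 had a negative log2 fold change, Tnfrsf14 (-0.20), Ptpn6 (-0.10) and Selplg (-0.089), and DESeq2 also called 0 lower. The median log2 fold change of the 24 was 0.070. None of the 6 reached a fold change of 1.5.

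In the nectin axis, 2 of 6 tested genes were higher, a call made for 16.6% of all tested genes. Pvr, which encodes CD155, the ligand shared by CD226, TIGIT and CD96, went from 40.4 ± 3.65 CPM (SD, n = 3) to 54.4 ± 3.00 CPM (log2 fold change 0.43, standard error 0.072, edgeR adjusted p = 7.9e-04), so RNA of this ligand rose in the samples in which that of Cd226 fell. Crtam, an activation-induced receptor for a nectin-like protein, went from 17.1 ± 1.18 CPM (SD, n = 3) to 20.9 ± 1.14 CPM (log2 fold change 0.29, edgeR adjusted p = 0.021). The Crtam call was lost with DESeq2 (adjusted p = 0.053) and without Veh replicate 1, Veh replicate 2 or GSK replicate 3 (edgeR adjusted p from 0.071 to 0.076). Nectin1, Nectin2 and Nectin3 were all under 1.3 CPM on average in both groups and did not pass, nor did Pvrig. Nectin4 and Cadm1 were not tested.

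Among the other partners, Lgals3, which encodes the LAG-3 ligand galectin-3, rose from 386 ± 45.4 CPM (SD, n = 3) to 529 ± 51.4 CPM (log2 fold change 0.46, standard error 0.11, edgeR adjusted p = 0.024). Its call was lost without a filter on low counts (0.064) and without Veh replicate 2 (0.065) or GSK replicate 2 (0.056), all edgeR adjusted p-values. Adam10 and Adam17, the proteases that shed LAG-3 and TIM-3, did not pass, with log2 fold changes of 0.045 and 0.017. Of 7 genes for kinases, phosphatases and adaptors that act on receptor tails, 2 were higher, a call made for 16.6% of all tested genes. These were Fyn (log2 fold change 0.33, edgeR adjusted p = 7.5e-04) and Lck (0.13, edgeR adjusted p = 0.011). The phosphatase genes Ptpn6, Ptpn11 and Inpp5d did not pass. Itgal, the alpha chain of the integrin LFA-1 with which CD226 associates, rose from 944 ± 1.83 CPM (SD, n = 3) to 1146 ± 25.5 CPM (log2 fold change 0.28, edgeR adjusted p = 5.0e-05), while its beta chain Itgb2 did not pass (log2 fold change 0.044). In the HVEM axis 0 of 3 genes passed in edgeR, against 32.1% of all tested genes. Tnfrsf14, which encodes HVEM, was at a log2 fold change of -0.20 (edgeR adjusted p = 0.080). Hmgb1 and Bag6, a ligand and an adaptor of TIM-3, did not pass, with log2 fold changes of 0.024 and 0.0094. Timd2, Fgl1 and Igsf11 were not tested, and Timd4 and Clec4g were not analysed here.

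**Figure D5:**
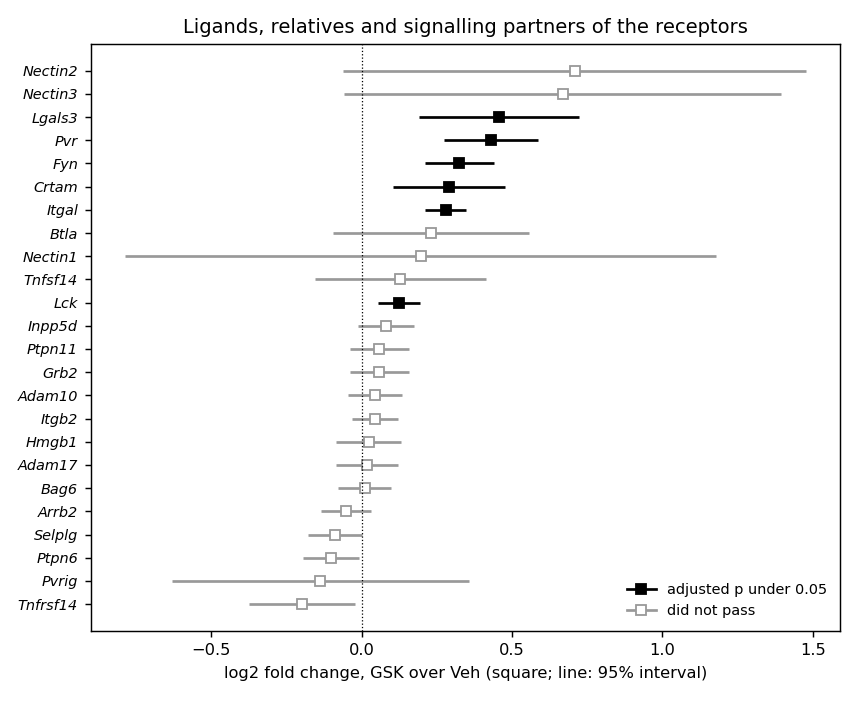
Log2 fold change of GSK over Veh (squares) with unadjusted 95% intervals (lines) for the 24 tested ligands, relatives and signalling partners, filled black where the edgeR adjusted p was under 0.05. All 6 black squares (Lgals3, Pvr, Fyn, Crtam, Itgal and Lck) lie above 0, and the widest intervals belong to the rarely counted nectin genes.

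For each tested member, the gene with the most similar pattern over the 6 samples was sought among 9596 other genes with a mean of at least 5 CPM. By Pearson's r of log2 CPM, given as a description of 6 points that share 2 groups, these were Rab5b for Cd96 (0.999), Rnf167 for Vsir (0.999) and Zfp61 for Cd226 (0.998). For Havcr2 it was Nsmce4a (0.997), for Tigit Ubald2 (0.997), for Lag3 Ppp1r35 (0.993) and for Lgals9 Ddx60 (0.992). Cd160 and Ceacam1 had Myo10 (0.982) and Pigr (0.981). An r over 0.95 was reached by 694 genes for Vsir, 594 for Cd96, 233 for Cd226 and 128 for Havcr2. It was reached by 27 for Lag3, 22 for Lgals9, 19 for Tigit, 12 for Ceacam1 and 6 for Cd160. Over 6 points in 2 groups, such counts also reflect the difference between the groups and add no support to it.

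Markers of other cells stood beside these results. Of the CD8 T cell markers, 3 of 6 were lower at an edgeR adjusted p under 0.05, against 15.5% of all tested genes. These were Cd3d, Cd3e and Cd3g (log2 fold changes from -0.38 to -0.16). The summed level of the 6 was 2190 to 2300 CPM in Veh and 2010 to 2150 CPM in GSK. The 3 markers of CD4 and regulatory T cells, which can carry Tigit and Lag3, summed to 43.1 to 52.8 CPM in Veh and 39.1 to 44.8 CPM in GSK, nearly all of it from Zbtb7b. Of these, 0 of 3 passed in edgeR, against 32.1% of all tested genes, and 0 of 3 had an unadjusted p under 0.05. Foxp3 was at 3.26 ± 1.38 CPM (SD, n = 3) and 3.54 ± 1.25 CPM. Summed levels in Veh and GSK were 1.58 to 2.39 and 2.38 to 3.78 CPM for the NK cell markers with a row (4), 6.88 to 9.13 and 8.7 to 9.97 CPM for those of B cells (7), and 10.2 to 15.7 and 9.95 to 13.2 CPM for those of myeloid cells (7). For those of dendritic cells (4) they were 3.27 to 4.84 and 1.77 to 2.62 CPM, and Itgax fell (log2 fold change -1.37, edgeR adjusted p = 0.0023). Zbtb46, the other dendritic cell marker tested, did not pass (log2 fold change 0.033, edgeR adjusted p = 0.96). Of the tested B cell markers, Cd22 rose (log2 fold change 2.65, edgeR adjusted p = 1.5e-04). Neither Cd79b (-0.41, edgeR adjusted p = 0.070) nor Bank1 (0.071, edgeR adjusted p = 0.89) passed. The myeloid sum came mostly from Cd68 (log2 fold change 0.076, edgeR adjusted p = 0.74). The other tested myeloid markers, Itgam (-0.70, edgeR adjusted p = 0.073) and Lyz2 (-1.30, edgeR adjusted p = 0.29), did not pass either. For Itgam, all GSK samples lay below all Veh samples. Vsir and Lgals9 were at over 130 CPM in every sample. CPM of different genes are not corrected for length, so these levels cannot be set against the sums of the marker lists. The part of such cells in the members' differences was not tested.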

How the data were processed

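The authors trimmed reads with Trimmomatic, mapped them to GRCm38 with hisat2 (2.1.0) and used HTSeq-count (0.11.2) to assign them to genes, and the deposited values are these raw counts. The annotation release and the strand setting of the counting were not given in the sources used here, so overlapping genes are named beside each member. Groups came from the sample titles.

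Counts of all genes were compared in R (4.3.3) with edgeR (4.0.16), using robust quasi-likelihood tests, TMM scaling, filterByExpr and Benjamini-Hochberg adjustment over 11698 genes. Standard errors came from the test statistic, and 95% intervals from these and the fit's degrees of freedom. Ratios were tested by exact permutation over samples. DESeq2 (1.42.0), RLE factors, 2 other filters on low counts, a fit without robust shrinkage, the replicate block and leaving out each sample were alternatives. In 5 simulations of 11698 genes with 200 changed 2-fold, edgeR recovered 97.9% of changed genes, false calls were 7.69% of its calls (8.7% for DESeq2), and the intervals covered 95.2% of true values. The changed genes were drawn from those with a mean over 5 CPM. All tested members changed less than 2-fold, so this recovery does not tell how often changes of their size are found. Far fewer genes were changed in the simulations than the 32.1% called here, and their spread was the one estimated from these samples. The share of false calls and the coverage therefore need not hold for these data.

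The members and lists were chosen with earlier results of these data known. The text names all members, the 8 tested partners with the smallest p and untested partners, overlapping genes, Kdm1a and the gene most alike to each member. Other partners, markers and CD28 family genes were named after their values were seen. Replicate pairs differed by more than counting noise (a chi-square of 4.07 to 9.38 for each degree of freedom). The labels do not tie samples to mice, and p-values measure the spread between these samples. Limits from 0 counts cover counting error only.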

Additional observations from a re-analysis of the deposited data

How the results depend on the processing

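The counts of members lower (3) and partners higher (6) stayed within 1.5 times under all alternatives run. Members higher numbered 2 without robust shrinkage, where Havcr2 joined Tigit, and 0 to 1 with 1 sample left out. Members past both thresholds numbered 0 to 1 with 1 sample left out, Lag3 without Veh replicate 1 and Cd226 without Veh replicate 3 or GSK replicate 1. Partners lower numbered 1 with the replicate block (Tnfrsf14) and 0 to 2 with 1 sample left out, Tnfrsf14 without Veh replicate 3 and both Tnfrsf14 and Selplg without GSK replicate 2. The cause of these moves was not tested.

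The log2 fold change of Lgals9, which did not pass in any fit, ranged from -0.029 (without Veh replicate 3) to 0.096 with 1 sample left out and was also negative without GSK replicate 2 (-0.019). That of Ceacam1, which also did not pass, ranged from -0.17 (without Veh replicate 1) to 0.33 and was also negative without Veh replicate 2, GSK replicate 1 or GSK replicate 3 (-0.084, -0.048 and -0.034). Cd96, Cd226 and Vsir kept their direction and their call in all 12 alternatives.

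Same-numbered samples showed little shared deviation (correlations of -0.052, -0.081 and 0.16 for replicates 1, 2 and 3). Such correlations cannot exclude that they shared a mouse. The replicate block lowered the standard error for Cd226 (0.102 to 0.0581), Havcr2 (0.207 to 0.0897), Lgals9 (0.073 to 0.0543), Lag3 (0.183 to 0.178) and Ceacam1 (0.229 to 0.216). It raised that of Tigit (0.0835 to 0.0908), Cd96 (0.0436 to 0.0486), Cd160 (0.0822 to 0.0931) and Vsir (0.0564 to 0.063). These values do not decide the pairing, and the main fit was left unpaired. With the replicate block, edgeR gave Tigit an adjusted p of 0.063 and Havcr2 one of 0.0017, so Havcr2 replaced Tigit as the 1 member higher, and 3 were lower as without it. The paired differences in log2 ratio with the replicate block were -0.79 for Cd226 to Tigit, -0.22 for Cd226 to Cd96 and 0.37 for Cd160 to Lag3, each with an exact sign-flip p of 0.25, the smallest that 3 pairs allow. Depth limits Havcr1, and Ceacam1, Lag3 and Havcr2 had the largest spread between Veh samples among the tested members (34.6%, 22.7% and 21.8% of the mean).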

Other observations

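The CD28 family and its B7 ligands, the other large group of checkpoint genes, held 11 listed genes, of which 9 were tested. At an edgeR adjusted p under 0.05, 3 were higher and 4 lower, against 16.6% and 15.5% of all tested genes, and 3 also passed a fold change of 1.5, against 6.32%. These 3 were Ctla4 (log2 fold change -1.36), Pdcd1 (-0.92) and Cd86 (-0.61), all lower in GSK. The costimulatory receptor gene Cd28 also fell, from 332 ± 13.9 CPM (SD, n = 3) to 268 ± 23.2 CPM (log2 fold change -0.31, edgeR adjusted p = 0.0020). Icos rose from 133 ± 8.45 CPM (SD, n = 3) to 154 ± 4.91 CPM (log2 fold change 0.22, edgeR adjusted p = 0.0072), as did its ligand gene Icosl (log2 fold change 0.36, edgeR adjusted p = 0.031) and Cd80 (0.24, edgeR adjusted p = 0.018). Both lists held costimulatory receptor genes that fell, Cd226 and Cd28, next to inhibitory ones that fell. Each also held receptor genes called higher, the inhibitory Tigit among the members and the costimulatory Icos in the CD28 family. Whether the lists differ was not tested.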
